A study of Rattus norvegicus with 5 samples.

Results

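The 6 serotonin receptor genes Htr1b, Htr1d, Htr2a, Htr2c, Htr4 and Htr6 are described here in laser-captured projection neurons of the rat striatum. They were found by symbol in the authors' deposited comparison, all 6 of 6, and are 6 of the 13811 genes tested and of the 32285 genes counted. Striatomesencephalic neurons, the direct pathway cells whose axons reach the midbrain, gave 2 libraries, and striatopallidal neurons, the indirect pathway cells whose axons reach the pallidum, gave 3. Both kinds of neuron were marked by a fluorescent tracer placed in the field where their axons end, then cut out of the striatum with a laser, and their polyadenylated RNA was amplified with a single-cell kit. No treatment is named in the labels, and the strain, age, number of animals and number of cells behind each library are not stated in the sources used here. P-values would be too small if libraries of a group came from the same animal, and they measure only the spread between these 5 libraries.

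Serotonin reaches the striatum in axons of the raphe nuclei and acts there on several receptor families. The receptors encoded by Htr4, Htr6 and Htr7 couple to Gs-type proteins and raise cyclic AMP, and those encoded by Htr1b and Htr1d couple to Gi and Go proteins and lower it. The receptors encoded by Htr2a and Htr2c couple to Gq proteins and activate phospholipase C. Htr3a encodes a subunit of a ligand-gated ion channel and is expressed in a class of forebrain interneurons. Striatal projection neurons are known for Htr2c, Htr4 and Htr6 transcripts and for carrying the Htr1b receptor to their axon terminals.

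Depth was 20845178 and 22614680 counts for the striatomesencephalic and 22413168 to 24805062 counts for the striatopallidal libraries. A count of 3, taken as the detection floor, equals 0.121 to 0.144 CPM, a unit that divides each count by the total of its library. Striatopallidal replicate 2 stood apart, with Spearman correlations of 0.785 to 0.820 with the other libraries across genes, against 0.845 to 0.907 for all other pairs. The pathway labels could be set against their markers. Summed CPM over 12 direct pathway markers was 5212 and 5695 in the striatomesencephalic libraries against 2855, 2791 and 1882 in striatopallidal libraries. Over 8 indirect pathway markers it was 1893 and 2027 for striatomesencephalic against 6442, 6289 and 6950 for striatopallidal libraries. Over 10 markers shared by both kinds of spiny projection neuron it was 11813 and 15376 for striatomesencephalic against 15403, 14961 and 15164 for striatopallidal libraries. Direct and indirect markers were each present in both groups, with the sums going the way the labels say. Single markers did not all do so. By log2 fold change, 10 direct markers were higher and 2 lower in striatomesencephalic libraries, and 1 indirect marker was higher and 7 lower.

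Of the 6 receptor genes, 2 separated the groups in opposite directions, Htr4 being lower and Htr2c higher in striatomesencephalic neurons. No receptor gene passed the threshold in edgeR's quasi-likelihood test with Benjamini-Hochberg adjustment over all genes (adjusted p of 0.05), and neither did any other of the 13811 genes tested (0 called, 0%). Unadjusted p-values fell below 0.05 for 2 of the 6 members and for 839 of all genes tested (6.07%); of all genes tested, 2.93% were higher and 3.14% lower in striatomesencephalic neurons by that rule. CPM values of the groups did not overlap for the same 2 of 6 members, against 21.6% of all genes tested (10.4% higher and 11.2% lower). Over so few genes, a count of 2 is not far from that share. Log2 fold changes were over 1 in size for 3 of 6 members, against 35.4% of all genes tested. DESeq2 called 1 member, Htr4, and 226 genes in all (1.75%), the exact test of edgeR called Htr4 and 45 genes in all (0.326%), and limma voom called 0. Exact permutation of the 5 library labels for 1 gene has a smallest two-sided p of 0.1, so no such test was run.

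**Figure D1:**
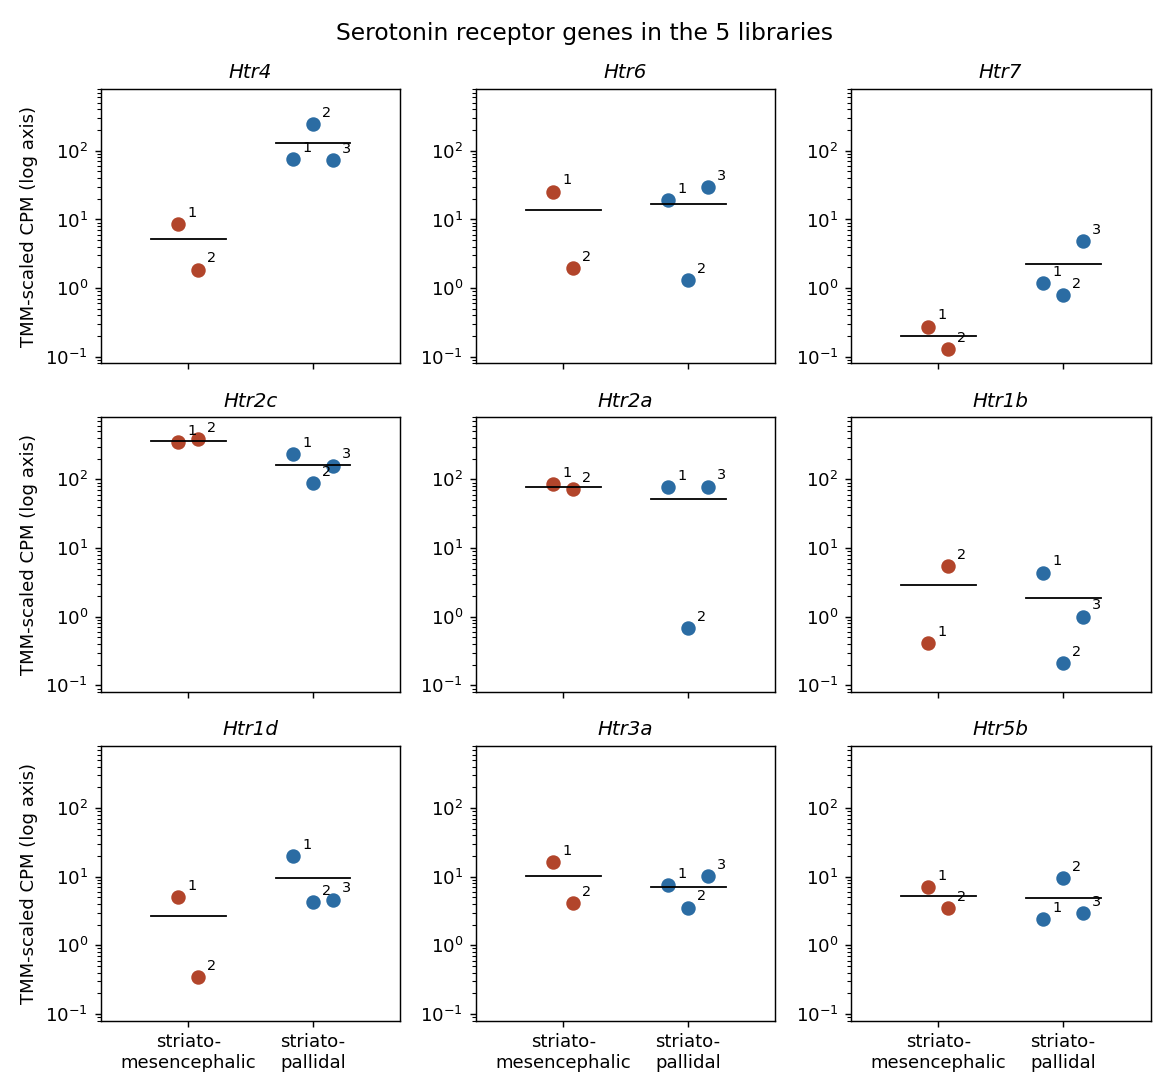
TMM-scaled CPM (log axis) of the 6 members and of 3 further serotonin receptor genes, with a point per library labelled by its replicate number and a line at the group mean, striatomesencephalic on the left. Only Htr4, Htr2c and Htr7 have groups that do not overlap, as was the case for 21.6% of all genes tested. Htr7 passed the filter on low counts only through the striatopallidal libraries. Striatopallidal replicate 2 lies far below every other library for Htr2a, at 0.678 CPM.

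Among the 3 receptors that couple to Gs, Htr4 (ENSRNOG00000019134) lay farthest from a log2 fold change of 0. It had 185 and 43 counts in the striatomesencephalic libraries, against 2078, 4686 and 1748 counts in the striatopallidal libraries. Scaled by TMM, these were 8.50 and 1.87 CPM in striatomesencephalic and 76.6, 244 and 73.3 CPM in the striatopallidal libraries. Every striatomesencephalic library lay below every striatopallidal one, and the transcript was above the floor in all 5. The log2 fold change, striatomesencephalic minus striatopallidal, was -4.66 ± 1.04 (SE), with a 95% interval of -7.12 to -2.21. In edgeR's quasi-likelihood test the unadjusted p was 0.00280 and the adjusted p 0.779, while the adjusted p was 1.95e-04 with DESeq2 and 0.0249 with the exact test of edgeR. Over the alternatives tried, the log2 fold change of Htr4 ran from -6.13 to -3.86 and the adjusted p from 1.95e-04 to 1. Without striatopallidal replicate 2, the highest library, it was -3.86. In libraries made from captured material, fewer cells of a type and less RNA per cell cannot be told apart.

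Htr6 (ENSRNOG00000049761), also coupled to Gs and known for its high striatal expression, split the libraries within each group and not between them. It had 555 and 45 counts in the striatomesencephalic libraries, against 514, 25 and 712 counts in the striatopallidal libraries. Its TMM-scaled levels were 25.5 and 1.95 CPM in striatomesencephalic, and 19.0, 1.30 and 29.9 CPM in the striatopallidal libraries. One library of each group, replicate 2 in both, was low, and the others lay close together. The log2 fold change was -0.28 ± 1.43 (SE), with a 95% interval of -3.67 to 3.10 that takes in large differences in either direction. Its sign was positive without striatomesencephalic replicate 2 (0.61) and without striatopallidal replicate 3 (0.43), and the value was -3.09 without striatomesencephalic replicate 1.

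Htr7, the remaining Gs-coupled receptor and not a member, was near the detection floor in striatomesencephalic libraries. It had 6 and 3 counts in the striatomesencephalic libraries, against 32, 15 and 116 counts in the striatopallidal libraries. Its striatomesencephalic replicate 2 count stood at the detection floor. The groups did not overlap, as was the case for 21.6% of all genes tested. Htr7 passed the filter on low counts only through the striatopallidal libraries, which favours a lower striatomesencephalic value. The log2 fold change was -3.46 ± 1.51 (SE), with an unadjusted p of 0.0561 and an adjusted p of 0.779 in edgeR's quasi-likelihood test. It was -2.25 without striatopallidal replicate 3, the highest library, and down to -4.07 when any other library was left out.

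Htr2c (ENSRNOG00000030877), whose transcript is known for RNA editing and whose receptor couples to Gq, was higher in striatomesencephalic libraries without passing adjustment. It had 7599 and 8789 counts in the striatomesencephalic libraries, against 6315, 1693 and 3783 counts in the striatopallidal libraries. TMM-scaled levels were 349 and 382 CPM in striatomesencephalic and 233, 88.3 and 159 CPM in the striatopallidal libraries. Both striatomesencephalic libraries lay above all striatopallidal ones, and they lay close to each other. The striatomesencephalic mean was 365 ± 23.2 CPM (SD, n = 2) and the striatopallidal mean 160 ± 72.3 CPM (SD, n = 3). The log2 fold change was 1.19 ± 0.47 (SE), with a 95% interval of 0.08 to 2.30, an unadjusted p of 0.0389 and an adjusted p of 0.779 in edgeR's quasi-likelihood test. It was 0.89 without striatopallidal replicate 2 and at most 1.56 when any other library was left out, and the adjusted p was 0.468 to 1 over all alternatives.

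Htr2a (ENSRNOG00000010063), the other Gq-coupled member and a receptor best known from cortical neurons, was nearly level in 4 libraries and almost missing from the remaining one. It had 1868 and 1646 counts in the striatomesencephalic libraries, against 2103, 13 and 1866 counts in the striatopallidal libraries. Scaled by TMM, levels were 85.8 and 71.5 CPM in striatomesencephalic, and 77.6, 0.678 and 78.3 CPM in the striatopallidal libraries. Striatopallidal replicate 2 was the low library, and the other striatopallidal libraries lay between the striatomesencephalic ones. The log2 fold change over all libraries was 0.59 ± 1.38 (SE), with an adjusted p of 0.962 in edgeR's quasi-likelihood test. Without striatopallidal replicate 2 it was 0.01 (adjusted p = 0.998), while limma voom, which works on log values, gave 2.06 with that library in.

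The gap of Htr2a between striatopallidal replicate 2 and the next lowest library was 6.55 on the log2 scale, and gaps of that kind were rare. Of the 13811 genes tested, 155 (1.12%) were more than 16-fold lower in striatopallidal replicate 2 than in every other library, on log2 CPM with a prior count of 2. The same count was 1 for striatopallidal replicate 1, 1 for striatopallidal replicate 3, 16 for striatomesencephalic replicate 1 and 9 for striatomesencephalic replicate 2. Among 4103 genes with a median of at least 1000 counts over the libraries, a group that takes in Htr2a, it was 11 for striatopallidal replicate 2, 2 for striatomesencephalic replicate 1 and 0 for each of the other libraries.

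The members that couple to Gi and Go, Htr1b and Htr1d, had few counts and spread widely within both groups. Htr1b (ENSRNOG00000013042) encodes an autoreceptor and heteroreceptor of axon terminals. It had 9 and 125 counts in the striatomesencephalic libraries, against 119, 4 and 24 counts in the striatopallidal libraries. The ranges of the groups overlapped in part, with 13.1-fold between the striatomesencephalic libraries and 21.0-fold between the highest and lowest striatopallidal ones. Its log2 fold change was 0.64 ± 1.60 (SE), with an adjusted p of 0.965 in edgeR's quasi-likelihood test, and it was -2.16 without striatomesencephalic replicate 2.

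Htr1d (ENSRNOG00000012038), which encodes the closest relative of the Htr1b receptor in this family, had 109 and 8 counts in the striatomesencephalic libraries, against 545, 81 and 110 counts in the striatopallidal libraries. TMM-scaled levels were 5.01 and 0.348 CPM in striatomesencephalic, and 20.1, 4.22 and 4.62 CPM in the striatopallidal libraries. Striatomesencephalic replicate 1 lay among the striatopallidal libraries, and replicate 2 below all of them. The log2 fold change was -1.85 ± 1.43 (SE), with an adjusted p of 0.837 in edgeR's quasi-likelihood test. It ran from -4.77 without striatomesencephalic replicate 1 to -0.72 without striatopallidal replicate 1.

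**Figure D2:**
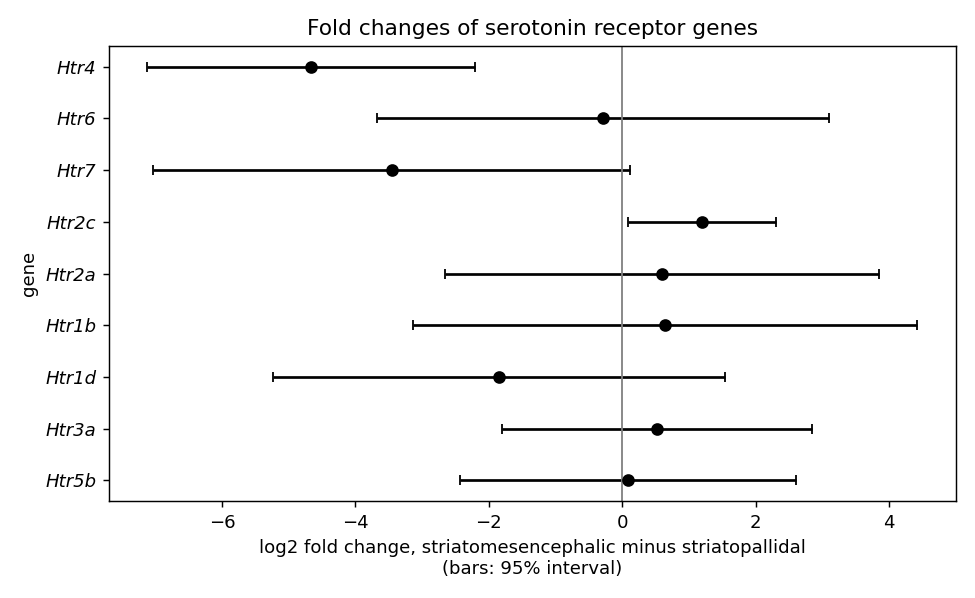
Log2 fold change of each serotonin receptor gene, striatomesencephalic minus striatopallidal, with its 95% interval from edgeR's quasi-likelihood fit on 2 and 3 libraries. The interval lies wholly below 0 for Htr4 (-7.12 to -2.21) and wholly above 0 for Htr2c (0.08 to 2.30), and it spans 0 for the other genes.

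Of 8 further receptor genes looked for, Htr3a and Htr5b were matched besides Htr7, and 5 were not (Htr1a, Htr1f, Htr2b, Htr3b and Htr5a) and were not analysed here. Htr3a had 351 and 95 counts in the striatomesencephalic libraries, against 204, 68 and 241 counts in the striatopallidal libraries. Htr5b, which is a working gene in rodents, had 152 and 81 counts in the striatomesencephalic libraries, against 66, 181 and 71 counts in the striatopallidal libraries. Neither gene separated the groups, with log2 fold changes of 0.52 ± 0.98 (SE) for Htr3a and 0.09 ± 1.06 (SE) for Htr5b. The sign of both was negative without striatomesencephalic replicate 1, at -0.77 for Htr3a and -0.49 for Htr5b.

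The make-up of receptor RNA within each library was also compared. Counts are not per length here, so shares show how the mix differed between libraries and do not rank the genes. The Gs-coupled members Htr4 and Htr6 together held 7.17% (95% Wilson interval 6.69 to 7.68) and 0.826% (0.671 to 1.02) of the counts of the 6 genes in striatomesencephalic libraries. They held 22.2% (21.5 to 23.0), 72.5% (71.4 to 73.5) and 29.8% (28.9 to 30.8) in striatopallidal libraries. That share was lower in both striatomesencephalic libraries than in any striatopallidal one, and of that pair only the Htr4 share separated the groups. Htr6 by itself overlapped, at 5.38% and 0.422% in the striatomesencephalic libraries, against 4.40%, 0.384% and 8.64% in striatopallidal libraries. The Gi- and Go-coupled members Htr1b and Htr1d held 1.14% (0.955 to 1.37) and 1.25% (1.05 to 1.48) in the striatomesencephalic libraries, against 5.69% (5.28 to 6.12), 1.31% (1.06 to 1.61) and 1.63% (1.37 to 1.92) in striatopallidal libraries. Those shares were also lower in striatomesencephalic libraries, but the counting intervals of both overlapped that of striatopallidal replicate 2. The Gq-coupled members Htr2a and Htr2c held 91.7% and 97.9% in the striatomesencephalic libraries, against 72.1%, 26.2% and 68.5% in striatopallidal libraries. Of that pair only the Htr2c share separated the groups. These intervals cover counting error only, since the labels name no molecular identifiers, and the shares of a library sum to a whole and are not separate results.

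**Figure D3:**
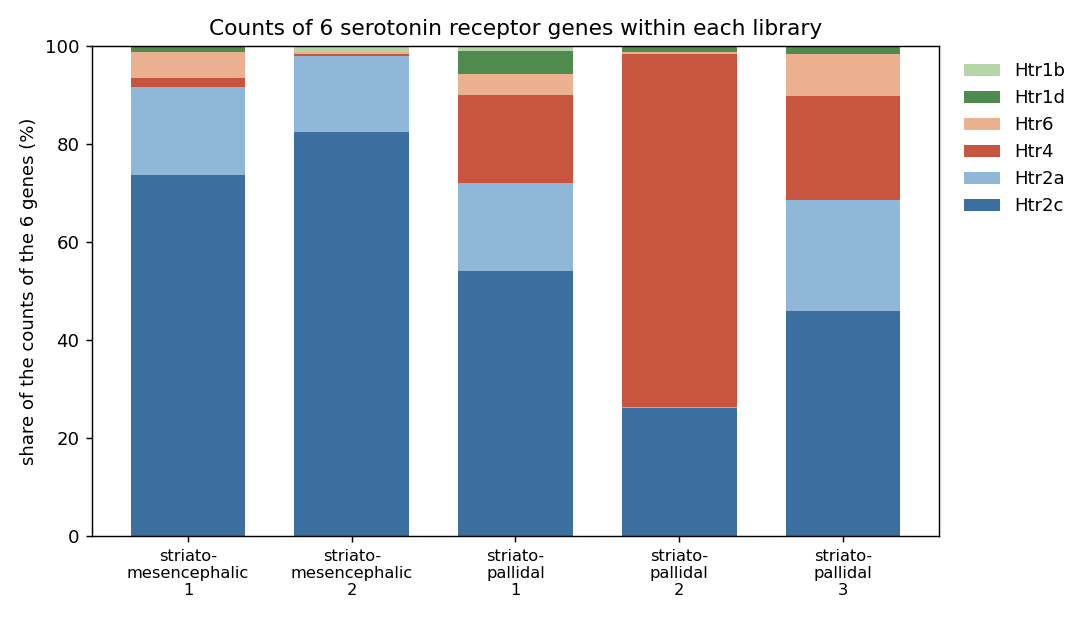
Share (%) of the counts of the 6 serotonin receptor genes that each gene held, with a stacked bar per library and the striatomesencephalic libraries on the left. Htr4 takes 1.79% and 0.404% in the striatomesencephalic libraries, against 17.8%, 72.1% and 21.2% in striatopallidal libraries.

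Within a library, Htr2c had 41.1 and 204 counts for each Htr4 count in the striatomesencephalic libraries, against 3.04, 0.361 and 2.16 in striatopallidal libraries. Ratios of 2 genes in 1 library do not depend on its scaling. These could not overlap between the groups, since Htr2c lay higher and Htr4 lower in both striatomesencephalic libraries. They are no separate result. For Htr2c over Htr2a the ratios were 4.07 and 5.34 in the striatomesencephalic libraries, against 3.003, 130 and 2.03 in striatopallidal libraries. That ratio overlapped between the groups, and the high value is that of the library where Htr2a was nearly missing.

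Spread between libraries of a group set how far each receptor could be compared. Across all genes tested, the median difference between the highest and lowest library of a group was 0.87 on the log2 CPM scale for the striatomesencephalic and 1.64 for the striatopallidal group. The striatopallidal group holds more libraries, and a range over more libraries tends to be wider. Ranges are therefore to be compared with other genes of the same group, not between the groups. Htr2c differed by 0.13 between the striatomesencephalic libraries, where only 9.06% of genes differed less, and by 1.40 among the striatopallidal ones. Htr6, Htr1d and Htr1b differed by 3.65, 3.55 and 3.46 between the striatomesencephalic libraries, in each case more than at least 92.3% of genes. Htr2a differed by 0.26 between the striatomesencephalic libraries but by 6.68 among the striatopallidal ones, more than 98.6% of genes. Htr4 differed by 2.13 between the striatomesencephalic libraries, more than 80.8% of genes, and by 1.73 among the striatopallidal ones, more than 52.6% of genes.

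**Figure D4:**
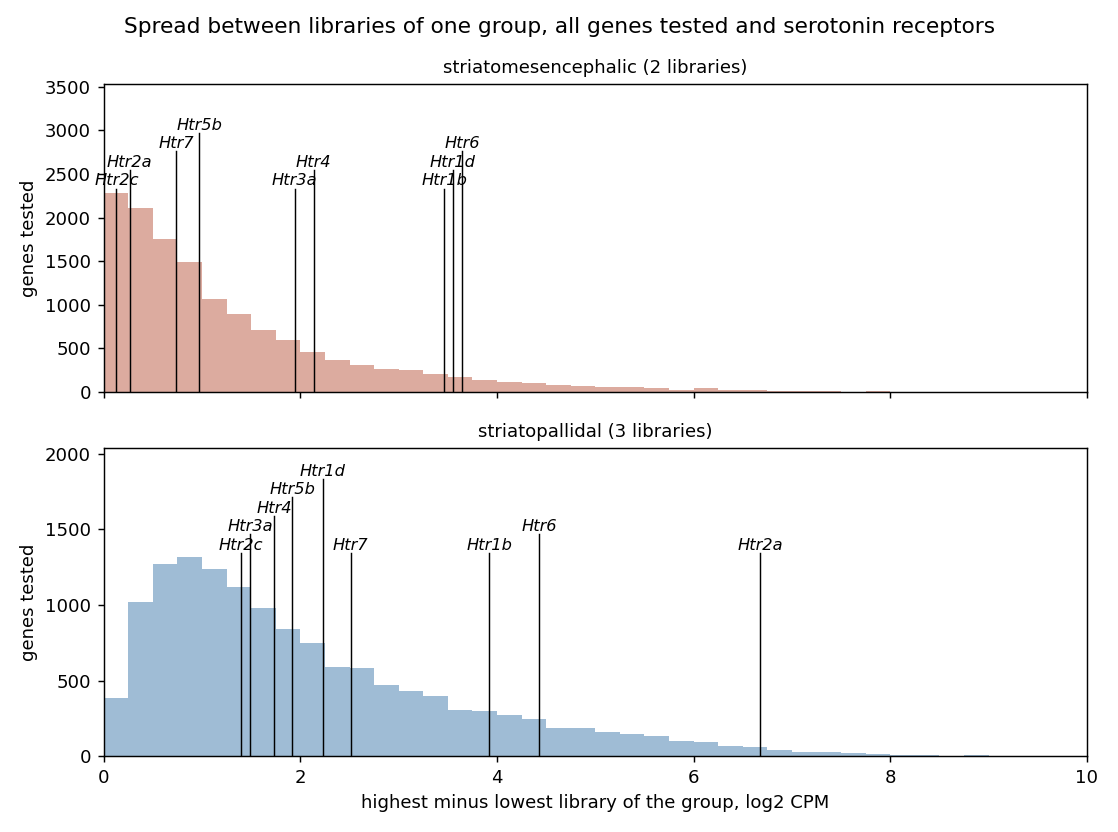
Number of genes tested by the difference between the highest and lowest library of a group on the log2 CPM scale, striatomesencephalic above and striatopallidal below, with the serotonin receptor genes marked by lines. Htr2c lies at the low end among striatomesencephalic libraries (0.13), and Htr2a at the high end among striatopallidal libraries (6.68).

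Genes with the most similar pattern were those with the smallest root mean square distance from a member in mean-centred log2 CPM over the 5 libraries. The closest to Htr2c were Arfgap1 (0.09), Klhl23 (0.10) and Zfyve26 (0.11), and Klhl23 stood at 553 and 730 CPM in the striatomesencephalic libraries against 413, 166 and 269 CPM in the striatopallidal libraries. The closest to Htr4 were LOC100912391 (0.48), Arhgap19 (0.51) and Zfpm1 (0.57); Arhgap19 stood at 0.138 and 0 CPM in the striatomesencephalic libraries against 4.57, 10.5 and 5.29 CPM in the striatopallidal libraries. The closest to Htr2a were Bccip (0.32), Mier3 (0.36) and Fhl2 (0.38), which also fell away in striatopallidal replicate 2. Mier3 stood at 215 and 87.1 CPM in the striatomesencephalic libraries against 108, 1.30 and 139 CPM in the striatopallidal libraries. For Htr6 they were Pgap3 (0.21), AC131411.1 (0.30) and Dbr1 (0.31), for Htr1b Sec61b (0.18), Nmu (0.32) and Mrpl18 (0.32), and for Htr1d Sytl5 (0.43), Dock8 (0.55) and the microglial complement gene C1qb (0.61). With 5 libraries and many candidate genes, such matches are a description only.

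Genes of the receptors' signalling routes were read from lists, and none of the 76 tested list genes, the 3 further receptors included, passed in edgeR's quasi-likelihood test over all genes. The Gs and cyclic AMP list had 18 tested genes with a median log2 fold change of 0.25, beside -0.06 over all genes tested, with 12 values positive and 6 negative and none with an unadjusted p below 0.05, against 6.07% of all genes tested. Its smallest p-values were those of Prkar2a, a regulatory subunit of protein kinase A (log2 fold change 2.01), Adcy1, a calcium-stimulated adenylyl cyclase (log2 fold change -2.37), and Creb1, a transcription factor that protein kinase A phosphorylates (log2 fold change -1.07). The median log2 fold change was -0.18 without striatomesencephalic replicate 1 and 0.09 without striatopallidal replicate 2. Of 15 genes of the Gi and Go list, 1 was higher and 1 lower at an unadjusted p below 0.05, beside 2.93% higher and 3.14% lower among all genes tested. Its median log2 fold change was -0.04, and it was -0.34 without striatomesencephalic replicate 2 and 0.25 without striatopallidal replicate 2. Gng3, a G protein gamma subunit, had a log2 fold change of 1.73, Kcnj3, a subunit of the potassium channel that Gi and Go proteins open, had -2.14, and Gnai2, an inhibitory alpha subunit, had 0.99. Of 13 genes of the Gq list, Plcb4, a phospholipase C, was the only gene at an unadjusted p below 0.05. Among all genes tested it was 6.07% in either direction and 3.14% lower, and over so few genes a count of 1 is near that share. Plcb4 had 89 and 63 counts in the striatomesencephalic libraries, against 380, 560 and 1495 counts in the striatopallidal libraries, a log2 fold change of -3.37. The list's median log2 fold change was -0.23, and 0.04 without striatomesencephalic replicate 1, with Prkce and Prkcb, both protein kinase C genes, at -0.91 and -0.50.

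Of 21 genes for proteins that bind, traffic, desensitise or edit serotonin receptors, 2 had an unadjusted p below 0.05, both lower in striatomesencephalic neurons, beside 6.07% of all genes tested in either direction and 3.14% lower. Over so few genes, a count of 2 is near that share. They encode the parts of a known complex, S100a10 (also called p11), which binds the Htr1b and Htr4 receptors, and annexin A2, its partner. S100a10 had 4 and 3 counts in the striatomesencephalic libraries, against 41, 53 and 301 counts in the striatopallidal libraries. Anxa2 had 0 and 1 counts in the striatomesencephalic libraries, against 80, 55 and 61 counts in the striatopallidal libraries. Neither gene overlapped between the groups, as was the case for 21.6% of all genes tested. Both genes passed the filter on low counts only through the striatopallidal libraries. That filter favours this direction, so their separation and p-values are no separate support for a difference. In striatomesencephalic libraries S100a10 was at most 1 count above the floor and Anxa2 was below it. Their fitted log2 fold changes of -5.12 and -6.67 rest on very few counts there, and their size is uncertain. Unadjusted p-values were 0.0153 for S100a10 and 0.00587 for Anxa2, and the adjusted p was 0.779 for each in edgeR's quasi-likelihood test. The beta-arrestin gene Arrb1 had a log2 fold change of 0.70, and the median log2 fold change of the list was -0.16.

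Of 12 genes for serotonin synthesis, transport and breakdown, 6 could be matched. Tph2, Slc6a4 and Fev, the genes that define serotonin neurons, were not among them. Slc22a3, a low-affinity transporter that takes up serotonin, had 339 and 1988 counts in the striatomesencephalic libraries, against 3939, 5407 and 5201 counts in the striatopallidal libraries, a log2 fold change of -2.08 (unadjusted p = 0.0322 in edgeR's quasi-likelihood test). Ddc, the decarboxylase of serotonin and dopamine synthesis, had 210 and 355 counts in the striatomesencephalic libraries, against 80, 11 and 9 counts in the striatopallidal libraries, a log2 fold change of 3.26 (unadjusted p = 0.0298 in the same test). Maob, a monoamine oxidase, had a log2 fold change of 1.22, and the median log2 fold change of the 6 genes was 0.85. That median was 0.12 without striatomesencephalic replicate 1, 0.42 without striatomesencephalic replicate 2, and 0.56 without striatopallidal replicate 1, where 5 genes were tested. Of the 6 genes, 1 was higher and 1 lower at an unadjusted p below 0.05, beside 2.93% higher and 3.14% lower among all genes tested. Both Slc22a3 and Ddc had groups that did not overlap, as had 21.6% of all genes tested, and neither passed adjustment over all genes.

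**Figure D5:**
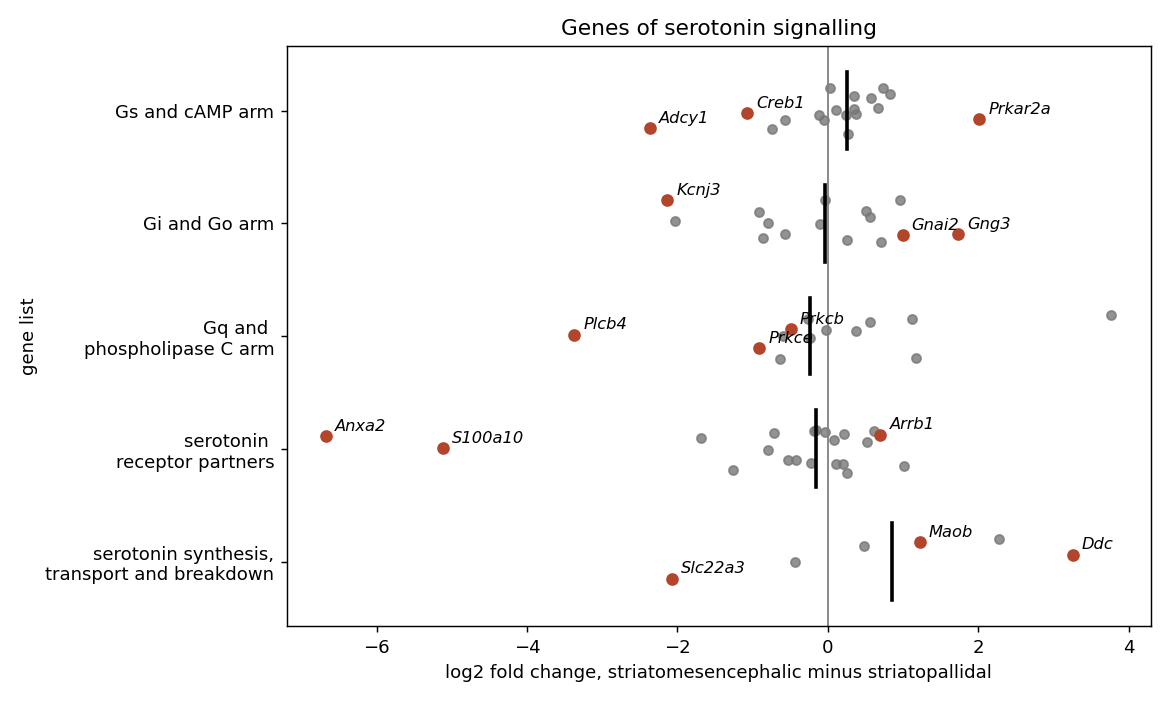
Log2 fold change, striatomesencephalic minus striatopallidal, of each tested gene in 5 lists of serotonin signalling, with a bar at the list's median and the 3 genes of each list with the smallest p named. Anxa2 and S100a10 lie farthest to the left, at fitted values of -6.67 and -5.12. Both passed the filter on low counts only through the striatopallidal libraries. No gene passed adjustment over all genes.

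Markers of other cell types were read beside the receptors. Gfap, an astrocyte filament gene, had 239 and 87 counts in the striatomesencephalic libraries, against 5786, 4344 and 1965 counts in the striatopallidal libraries, the same direction as Htr4, S100a10 and Anxa2. The other astrocyte markers did not all follow Gfap: of 11, 6 had positive and 5 negative log2 fold changes, with a median of 0.09. Summed CPM over all 11 astrocyte markers overlapped between the groups, at 1434 and 1182 in the striatomesencephalic libraries against 1572, 1073 and 1308 in striatopallidal libraries. Slc1a3, a glutamate transporter, had the most counts among these markers. All 5 microglial markers summed here had negative log2 fold changes, and their sum was 35.8 and 20.6 CPM in the striatomesencephalic libraries against 104, 36.4 and 31.5 CPM in the striatopallidal libraries. These log2 fold changes ran from -3.62 to -0.04, so not all 5 were far from 0. C1qa had the most counts, with a log2 fold change of -0.11 ± 1.03 (SE). Tmem119 had the smallest p (log2 fold change -3.62). Vascular markers, 7 in number, summed to 67.5 and 129 CPM in the striatomesencephalic libraries against 77.3, 255 and 86.8 CPM in the striatopallidal libraries, and Flt1 had the most counts and the smallest p (log2 fold change -1.12). The sums of these 3 lists overlapped between the groups, and the part of these cells in the Htr4 difference was not tested.

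Choroid plexus, where Htr2c is abundant, was represented by 2 of 11 markers. Kl had 112 and 1 counts in the striatomesencephalic libraries, against 0, 1 and 0 counts in the striatopallidal libraries, and Enpp2, which oligodendrocytes also express, had 99 and 1670 counts in striatomesencephalic and 1085, 234 and 489 counts in striatopallidal libraries. Of 4 glutamatergic markers, Rorb had 2692 and 1252 counts in the striatomesencephalic libraries, against 534, 340 and 456 counts in the striatopallidal libraries, and Nrgn, which projection neurons also express, had 1622 and 2914 counts in striatomesencephalic and 10791, 3773 and 7830 counts in striatopallidal libraries. Of 5 interneuron markers, Nos1 had the most counts (log2 fold change -0.45) and Calb2 the smallest p (log2 fold change 4.42), with sums of 60.8 and 82.5 CPM in the striatomesencephalic libraries against 90.2, 62.6 and 128 CPM in the striatopallidal libraries. Oligodendrocyte markers, led by Mbp, summed to 5979 and 7479 CPM in the striatomesencephalic libraries against 7234, 6953 and 5348 CPM in the striatopallidal libraries, with Mag (log2 fold change -1.12) having the smallest p of 10. The part of these cells in the receptor values was not tested.

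The authors' deposited table covers 12054 genes of the same comparison and gives fold changes as striatopallidal minus striatomesencephalic. In the authors' deposited table, Htr4 had a log2 fold change of 4.83 (p = 0.00444) and ranked at place 43 by p, and Htr2c had -1.47 (p = 0.0245) at place 234. These were the only members with a p below 0.05 there, in a table where 4.53% of genes had one, and 0 genes (0%) had an adjusted p below 0.05. In the authors' deposited table, Htr2a had -2.72 (p = 0.154), larger in size than the 0.59 of edgeR's quasi-likelihood fit and nearer in size to the 2.06 of limma voom, both striatomesencephalic minus striatopallidal. Htr1d had 2.33 (p = 0.256) in the authors' deposited table. Both sets of values rest on the same counts and are not independent.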

How the data were processed

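Gene counts from 5 libraries were analysed. The tools named are TopHat2, HTSeq, edgeR and limma, with build Rnor_6.0, per the submitters' processing notes; versions, roles and any use of strand in counting are not given there. The authors deposited raw counts per Ensembl gene for each library, and a comparison that holds log2 fold changes and mean levels, p-values, and t and log-odds scores. Gene symbols came from that deposited comparison, and genes without a unique symbol there were not analysed by name. No genome of that build was used, so no positions are given.

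The test on counts was edgeR 4.0.16 under R 4.3.3 (filterByExpr by group, TMM scaling, glmQLFit and glmQLFTest, Benjamini-Hochberg adjustment over 13811 genes), striatomesencephalic minus striatopallidal. Standard errors were derived from fold changes and F statistics, and 95% intervals from these. Sums over marker lists and the detection floor are plain CPM; other CPM values are TMM-scaled. The steps were tested on simulated counts that spread far less between libraries than the deposited counts. That test checked the code and does not show how large a difference could be called here. DESeq2 1.42.0, edgeR's exact test, limma 3.58.1, other scalings, no filter, a replicate block and leaving out each library were alternatives. One microglial marker is not reported here and was left out of its list. The members and lists were chosen with earlier results of these data known. Named genes are the members, other serotonin receptors, the 3 genes of each pathway list with the smallest p, the most counted and smallest-p marker of each other cell type, and the 3 genes most like each member with a mean of at least 1 CPM. Pairs of libraries gave chi-square values of 164 to 585 per degree of freedom, so none was taken for a repeat of another.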

Additional observations from a re-analysis of the deposited data

How the results depend on the processing

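Across 13 alternatives, Htr4, Htr1d and Htr7 kept a negative and Htr2c and Htr2a a positive log2 fold change. The number of genes called was 0 with each edgeR quasi-likelihood fit and with limma voom, 226 with DESeq2 and 45 with edgeR's exact test, and that of members called was 0, 1 with DESeq2 and 1 with the exact test. With libraries left out in turn, 0 genes and 0 list genes were called. The number of members whose groups did not overlap was 2, and 2 to 4 with a library left out, the 4 being without striatomesencephalic replicate 1, which leaves a lone library in that group that is assumed to vary like the others. With fewer libraries, groups overlap less often: 48.2% of all genes tested did not overlap without striatomesencephalic replicate 1, 49.8% without striatomesencephalic replicate 2 and 32.1% to 39.3% without a striatopallidal library, so no more is read from the 4. Left-out values ran from -2.16 to 2.24 for Htr1b, -3.09 to 0.61 for Htr6, -0.77 to 1.19 for Htr3a and -0.49 to 0.95 for Htr5b. With the replicate number as a block, Htr6 turned to 0.50, Htr2a moved to 3.31 and Htr7 to -2.30. The median of the serotonin synthesis, transport and breakdown genes moved to 0.40, and the block left 0 genes called. In that fit striatopallidal replicate 3 is alone in its block and does not bear on the group contrast. What else moved these values was not tested. Deviations from the group mean correlated at -0.02 between the libraries numbered 1 and at -0.03 between those numbered 2. With so few and such variable libraries, these values cannot exclude that libraries were paired. Against a floor of 3 counts, Htr7 and S100a10 lay near the limit of detection in striatomesencephalic libraries, and Anxa2 lay below it.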
